A study of Mus musculus with 4 samples.

Results

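The transcripts of 10 genes of the Notch pathway were followed through thymic epithelial cells (TECs) that had lost RANKL signalling, CD40 signalling or both. They are the ligands Dll4, Dll1, Jag1 and Jag2, the receptors Notch1, Notch2 and Notch3, and the nuclear factors Hes1, Hes6 and Hey1. They were taken by symbol from the 31053 genes of the count tables, all 10 were found, and their unique molecular identifiers (UMIs, 1 per captured transcript) were summed per cell class in each library. The study used droplet single-cell RNA sequencing on TECs sorted as EPCAM+, CD45- and TER119- from 6-week-old C57BL/6 mice. WT-Control is wild-type mice given control IgG, WT-RANKL-Ab is wild-type mice given an antibody that neutralises RANKL, and Cd40-/- Control and Cd40-/- RANKL-Ab are CD40-deficient mice given the same control or antibody. Values of a genotype are given as a pair, the control IgG library first and the RANKL antibody library after it. Each condition is 1 library made from cells of several pooled mice, so no value has a replicate, no test between conditions was possible, and the ranges in parentheses after a value are 95% intervals that cover counting error only. The deficiency and the antibody act on the whole animal, so a difference in TECs is not tied to a signal received by those cells.

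In Notch signalling a DLL or JAG ligand on 1 cell binds a NOTCH receptor on its neighbour, the receptor is cut by an ADAM protease and then by gamma-secretase, and its intracellular part joins RBPJ and a Mastermind co-activator to switch on genes of the HES and HEY families. In the thymus DLL4 on cortical TECs (cTECs) is the ligand that commits incoming progenitors to the T lineage through NOTCH1. TECs carry Notch receptors themselves, and Notch activity in them is known for a role in the early medullary lineage. RANK, the receptor of RANKL, and CD40 are the receptors through which lymphoid cells drive the growth of medullary TECs (mTECs).

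To place the genes, the 250 bases before an annotated start are shown for the ligands Dll4 and Dll1 and for the receptors Notch2 and Notch3, as the delta ligands and the receptors that the results on CCL21+ mTEC-like and cTEC-like cells turn on. The sequences are from RefSeq (GRCm38.p6), 5′ to 3′ on the gene's strand, and capitals mark the GACGC core bound by FOXN1, the master factor of thymic epithelium.
Dll4, chr2:119325534-119325783, plus strand: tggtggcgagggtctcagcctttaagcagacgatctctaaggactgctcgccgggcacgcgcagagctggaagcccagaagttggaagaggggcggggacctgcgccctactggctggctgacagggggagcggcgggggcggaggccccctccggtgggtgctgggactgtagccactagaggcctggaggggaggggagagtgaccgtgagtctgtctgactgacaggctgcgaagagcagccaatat
Dll1, chr17:15375824-15376073, minus strand: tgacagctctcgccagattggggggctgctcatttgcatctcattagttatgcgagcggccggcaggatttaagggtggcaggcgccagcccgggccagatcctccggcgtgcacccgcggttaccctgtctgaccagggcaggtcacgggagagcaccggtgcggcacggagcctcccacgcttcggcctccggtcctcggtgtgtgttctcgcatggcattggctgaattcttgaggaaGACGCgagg
Notch2, chr3:98013288-98013537, plus strand: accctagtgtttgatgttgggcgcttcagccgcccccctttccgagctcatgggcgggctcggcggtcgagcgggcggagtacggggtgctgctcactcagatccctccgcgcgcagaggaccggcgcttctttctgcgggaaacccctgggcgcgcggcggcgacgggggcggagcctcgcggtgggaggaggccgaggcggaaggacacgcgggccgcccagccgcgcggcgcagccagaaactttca
Notch3, chr17:32166891-32167140, minus strand: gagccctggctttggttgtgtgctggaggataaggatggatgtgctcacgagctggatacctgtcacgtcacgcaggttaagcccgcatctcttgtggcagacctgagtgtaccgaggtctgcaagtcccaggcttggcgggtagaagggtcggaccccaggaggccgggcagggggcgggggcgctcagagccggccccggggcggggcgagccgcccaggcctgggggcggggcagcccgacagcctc
Of the 10 members, 8 were in the promoter table, with 10 starts between them, and Hes1 and Hey1 were not. GACGC, searched on both strands, lay in 3 of the 10 member windows (Dll1, Jag1, Notch1), against 22.6% of all 32851 promoters of that length. The Dll1 window shown, which holds the core, belongs to a start inside the gene as placed below. The window of the other Dll1 start, chr17:15376933-15377182, lies before the 5′ end of the gene and held none of the motifs searched. The Notch1 window with the core, chr2:26503823-26504072, also lies inside its gene, and that of Jag1 spans the 5′ end of its gene. The RBPJ motif TGGGAA was in none of the 10 member windows and in 21.6% of all promoters, and the NF-kB consensus searched was in none of them and in 1.41% of all. These matches describe letters in short windows and no binding.

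In GENCODE M21 (GRCm38) the ligand genes lie at chr2:119325784-119335962 (Dll4), chr17:15367354-15376872 (Dll1), chr2:137081456-137116644 (Jag1) and chr12:112907819-112929776 (Jag2). The receptor genes lie at chr2:26457903-26516663 (Notch1), chr3:98013527-98150361 (Notch2) and chr17:32120820-32166852 (Notch3), and the nuclear factors at chr16:30064384-30067796 (Hes1), chr1:91411483-91414038 (Hes6) and chr3:8663359-8667256 (Hey1). Genes of the same strand overlap Jag2 (Mir6941), Notch1 (Mir6996) and Notch2 (Gm42819 and Gm42820), and reads shared with these were not separable here. The 3′ tags count transcripts of a gene as a whole and do not tell coding exons from untranslated ones.

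The libraries held 10218, 7164, 8409 and 2082 cells after filtering, given as the wild-type pair and then the Cd40-/- pair, with 95271992, 48640152, 66153101 and 19153317 UMIs. Cd40 itself was at 110.0 and 28.8 CPM (UMIs of a gene per 1000000 UMIs of the cells summed) in the wild-type pair and 5.71 and 4.75 in the Cd40-/- pair, and Epcam, the sorted surface marker, was at 523 to 834 CPM in all 4. The Cd40-/- libraries shared 210 cell barcodes, 10.0% of the smaller library, where the other 5 pairs shared 0.858% to 1.44%. Of these, 182 stood in Cd40-/- Control at a median 35.5-fold fewer UMIs than in Cd40-/- RANKL-Ab and were left out of Cd40-/- Control. Keeping them shifted no log2 ratio of a member by more than 0.0216 and changed 0 of 13 counts of members past 2-fold. Cells were placed in 14 classes by marker genes, none of them a Notch member, and a class is called "like" the type its markers name. The cTEC-like class held 134, 545, 670 and 365 cells in that order, the CCL21+ mTEC-like class (Ccl21a, Krt5, Krt14, Itgb4) 2077, 2140, 933 and 502, and the progenitor-like class (Pdpn, Ackr4, Dcn and others) 230, 659, 459 and 396. Early Aire-lineage-like cells (Tmem158, Utf1, Nkx6-2) numbered 961, 322, 605 and 5 and cycling TA-TEC-like cells 532, 128, 541 and 10, so neither class has a usable value in Cd40-/- RANKL-Ab, and 8794 cells were in no class.

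Dll4 was concentrated in cTEC-like cells and in nurse cTEC-like cells, which pass both the cTEC and the T cell lists. In cTEC-like cells it stood at 57.9 (45.2 to 73.2) and 75.0 (67.2 to 83.5) CPM in the wild-type pair and 97.6 (88.9 to 107) and 93.6 (84.0 to 104) in the Cd40-/- pair. WT-Control was the lowest of the 4 libraries and both Cd40-/- libraries were above both wild-type ones. On the log2 scale WT-RANKL-Ab differed from WT-Control by 0.37 (-0.0022 to 0.77), Cd40-/- Control by 0.75 (0.39 to 1.14) and Cd40-/- RANKL-Ab by 0.69 (0.32 to 1.08), all under 2-fold. The WT-Control value rests on 70 UMIs in 134 cells. In nurse cTEC-like cells both Cd40-/- libraries again lay above both wild-type ones at 66.1 and 74.5 CPM in the wild-type pair and 106 and 112 in the Cd40-/- pair, the WT-Control value coming from 33 cells. Next in WT-Control came neuroendocrine-like cells at 14.2 CPM and Aire+ mTEC-like cells at 13.8, whose intervals overlap, and the other 10 classes ran from 0.861 CPM (CCL21+ mTEC-like cells) to 9.27 CPM (enterohepatic-like cells). Aire+ mTEC-like cells gave 13.8 and 22.4 CPM in the wild-type pair and 16.2 in Cd40-/- Control, with WT-RANKL-Ab highest. After every cell was thinned to 1000 UMIs, 2.59%, 5.93%, 7.56% and 10.5% of cTEC-like cells had a Dll4 UMI, wild-type pair first (unthinned, 25.4%, 30.8%, 31.5% and 40.8%), against 0.372% of 538 T cell-like cells of all libraries, which should lack it. Median depth before thinning was 5820.5 to 9495 UMIs in cTEC-like cells and 1804 in the T cell-like cells kept for thinning.

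Dll1, a second delta ligand, was highest in progenitor-like cells and stood apart in the Cd40-/- libraries in CCL21+ mTEC-like cells. In CCL21+ mTEC-like cells it measured 8.61 (7.14 to 10.3) and 9.02 (7.55 to 10.7) CPM in the wild-type pair and 18.3 (14.9 to 22.2) and 24.4 (19.8 to 29.7) in the Cd40-/- pair. The wild-type libraries were alike and both Cd40-/- libraries lay above them without overlap of the intervals. Cd40-/- Control was 2.12-fold WT-Control, or 1.08 (0.69 to 1.48) in log2, and Cd40-/- RANKL-Ab was 2.83-fold, or 1.50 (1.10 to 1.90). The same order held in cTEC-like cells at 5.79 and 11.8 CPM in the wild-type pair and 19.7 and 20.6 in the Cd40-/- pair. But there WT-Control had only 7 UMIs and the log2 difference of Cd40-/- RANKL-Ab from it could lie anywhere from 0.72 to 3.19. Nurse cTEC-like cells gave 9.60 and 8.45 CPM in the wild-type pair and 11.7 and 13.7 in the Cd40-/- pair, with overlapping intervals. Early Aire-lineage-like cells gave 3.42 and 4.09 CPM in the wild-type pair and 3.39 in Cd40-/- Control. In TA-TEC-like cells WT-RANKL-Ab was the high library, at 9.08 CPM against 2.06 in WT-Control and 2.83 in Cd40-/- Control. In WT-Control the progenitor-like level of 24.6 CPM (17.7 to 33.2) stood above the rest without overlap but for nurse cTEC-like cells, and the other 13 classes ran from 1.73 CPM (ciliated-like cells) to 9.60 CPM (nurse cTEC-like cells). In progenitor-like cells Dll1 was at 24.6 and 27.1 CPM in the wild-type pair and 36.1 and 31.7 in the Cd40-/- pair, with overlapping intervals among all 4. When progenitor-like cells were split at 20 Ccl21a UMIs per 10000, a level chosen after the data were seen, the Ccl21a-high ones had 11.9 and 18.0 CPM in the wild-type libraries and 35.2 and 34.5 in the Cd40-/- ones, and the Ccl21a-low ones lay between 29.4 and 36.7 in all 4.

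The Jagged ligands were spread more widely over the epithelium. Jag1 in WT-Control was highest in keratinocyte-like cells at 58.6 CPM (47.5 to 71.6), followed by progenitor-like cells at 40.3 CPM (31.4 to 51.1), whose interval overlaps, and by CCL21+ mTEC-like cells at 31.7 CPM (28.8 to 34.8), which overlap progenitor-like cells, and the other 11 classes ran from 3.20 CPM (nurse cTEC-like cells) to 19.0 CPM (ciliated-like cells). In progenitor-like cells the 4 libraries gave 40.3 and 48.5 CPM in the wild-type pair and 70.2 and 65.2 in the Cd40-/- pair. The Cd40-/- pair exceeded WT-Control by 0.80 (0.40 to 1.22) and 0.69 (0.30 to 1.10) on the log2 scale. Jag1 in CCL21+ mTEC-like cells ran in the same order of genotype, 31.7 and 34.8 CPM in the wild-type pair and 43.0 and 47.5 in the Cd40-/- pair. Jag2 in progenitor-like cells was at 79.5 and 112 CPM in the wild-type pair and 109 and 87.0 in the Cd40-/- pair, and in cTEC-like cells at 65.4 and 83.5 CPM in the wild-type pair and 95.9 and 88.2 in the Cd40-/- pair. Progenitor-like cells had the higher value in 3 of the 4 libraries, and in Cd40-/- RANKL-Ab the order was the reverse with overlapping intervals. The 2 classes overlap in WT-Control, and among progenitor-like cells WT-RANKL-Ab and Cd40-/- Control were the high libraries. Beyond these, the other 12 classes ran from 3.88 CPM (Aire+ mTEC-like cells) to 43.7 CPM (nurse cTEC-like cells). Split by Ccl21a as above, the progenitor-like cells below the level had 89.2, 126, 142 and 95.8 CPM of Jag2 and those above it 67.4, 79.0, 66.1 and 76.6, lower in each library. No ratio of Jag1 or Jag2 to WT-Control in cTEC-like, CCL21+ mTEC-like or progenitor-like cells reached 2-fold.

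**Figure D1:**
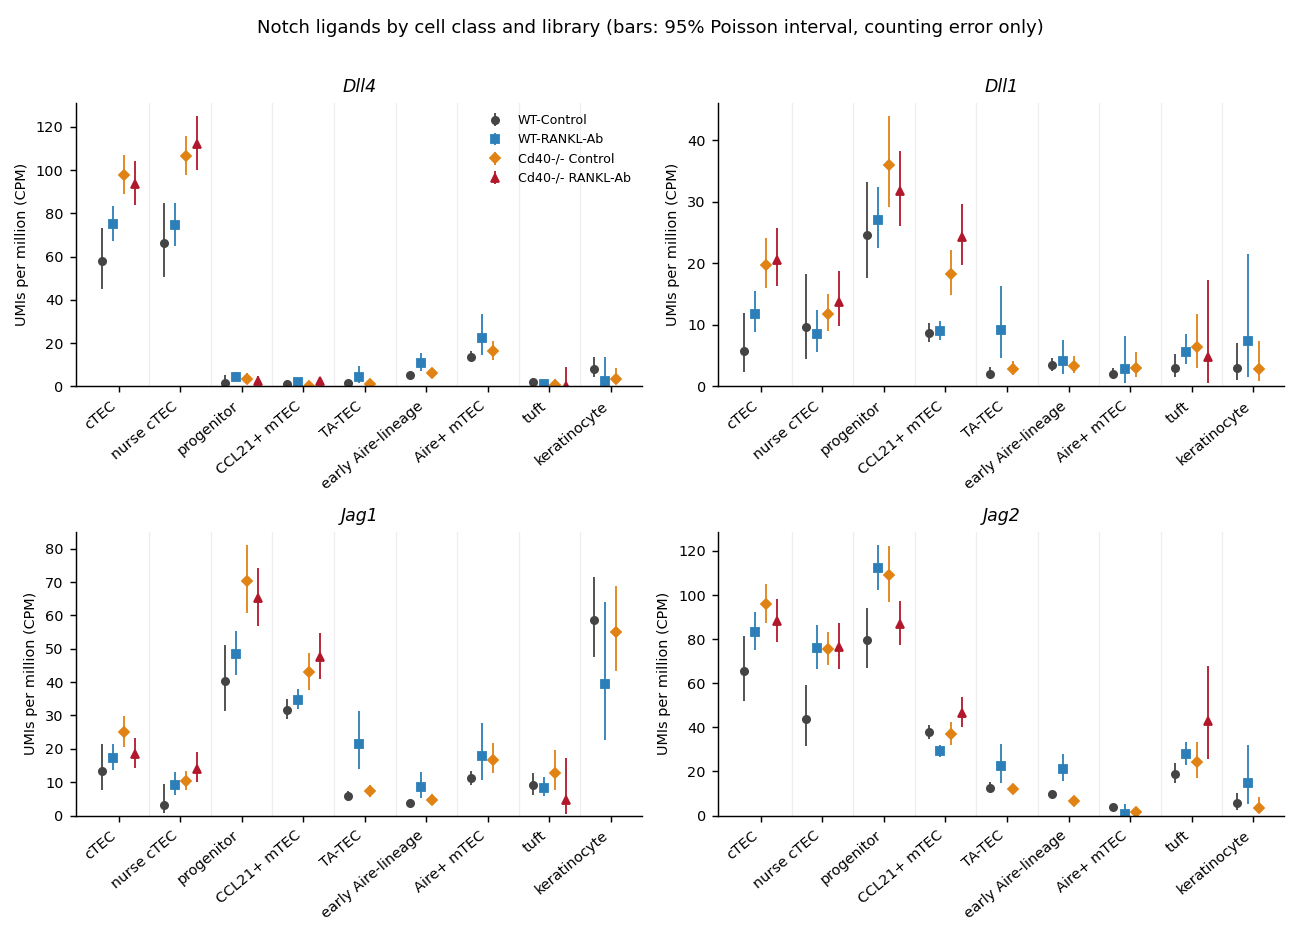
Each panel plots 1 ligand in CPM on the vertical axis for 9 cell classes, with 1 symbol per library and a bar for the 95% Poisson interval. A library is shown where the class has at least 50 cells, and for nurse cTEC-like cells at least 30. Dll4 sits at 57.9 to 112 CPM in the 2 cortical classes and at most 22.4 elsewhere, while Dll1 in CCL21+ mTEC-like cells separates the Cd40-/- libraries from the wild-type ones.

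Notch1 was measured beside T cell genes, because thymocytes express it and droplets can take up their free RNA. In T cell-like and nurse cTEC-like cells there were 0.688 to 1.80 Notch1 UMIs for every 100 UMIs of the 6 T cell markers (Cd3d, Cd3e, Cd3g, Lck, Cd8b1, Rag1). In CCL21+ mTEC-like cells there were 323 to 945, in progenitor-like cells 203 to 600.0 and in cTEC-like cells 53.3 to 89.2. The ratio was higher in these epithelial classes than in T cell-like and nurse cTEC-like cells in every library. The same 6 markers gate the T cell-like and nurse cTEC-like classes, so the contrast is in part set by the gate. The T cell markers summed to 7.10 to 13.1 CPM in CCL21+ mTEC-like cells, and the part of thymocyte RNA in the Notch1 values was not tested.

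In WT-Control Notch1 was highest in keratinocyte-like and CCL21+ mTEC-like cells, while in the other libraries T cell-like cells, at 99.1, 81.8 and 53.9 CPM, lay above CCL21+ mTEC-like cells, with intervals that overlap in WT-RANKL-Ab and Cd40-/- RANKL-Ab. In CCL21+ mTEC-like cells it stood at 48.6 (45.1 to 52.5) and 82.6 (78.0 to 87.4) CPM in the wild-type pair and 43.5 (38.2 to 49.3) and 42.2 (36.1 to 49.1) in the Cd40-/- pair. WT-RANKL-Ab was the high library, 1.70-fold WT-Control, and the intervals of the other three overlapped. Between antibody and control the log2 difference was 0.76 (0.63 to 0.90) in wild-type mice and -0.04 (-0.34 to 0.25) in Cd40-/- mice. Early Aire-lineage-like cells gave 27.6 and 85.9 CPM in the wild-type pair and 29.8 in Cd40-/- Control, and keratinocyte-like cells 58.0 and 101 CPM in the wild-type pair and 54.9 in Cd40-/- Control, again with WT-RANKL-Ab highest. In WT-Control the other 12 classes ran from 6.62 CPM (cTEC-like cells) to 27.7 CPM (nurse cTEC-like cells). The cTEC-like values were 6.62 and 14.7 CPM in the wild-type pair and 14.5 and 16.0 in the Cd40-/- pair. All 3 conditions passed 2-fold over WT-Control there, but the reference held 8 UMIs, and without cells that carried any T cell marker UMI they were 0.68 to 0.89 in log2, under 2-fold.

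Notch2 stood out in mice that lacked both signals. It measured, in CCL21+ mTEC-like cells, 52.2 (48.5 to 56.2) and 41.2 (38.0 to 44.6) CPM in the wild-type pair and 58.2 (52.0 to 64.9) and 109.8 (99.7 to 121) in the Cd40-/- pair. Cd40-/- RANKL-Ab was 2.10-fold WT-Control, or 1.07 (0.90 to 1.24) in log2, whereas WT-RANKL-Ab lay below it at -0.34 (-0.50 to -0.18). In progenitor-like cells the values were 39.2 and 27.5 CPM in the wild-type pair and 52.4 and 80.6 in the Cd40-/- pair, so that Cd40-/- RANKL-Ab lay 1.04 (0.65 to 1.45) and WT-RANKL-Ab -0.51 (-0.95 to -0.06) from WT-Control in log2. Split by Ccl21a, progenitor-like cells above the level had 39.6, 46.2, 72.1 and 119 CPM of Notch2, wild-type pair first, and those below it 38.8, 19.9, 37.4 and 48.7, so Cd40-/- RANKL-Ab stood out in the Ccl21a-high cells. In cTEC-like cells Notch2 was at 36.4 and 31.8 CPM in the wild-type pair and 40.5 and 57.2 in the Cd40-/- pair, with Cd40-/- RANKL-Ab 0.65 (0.18 to 1.16) above WT-Control in log2. In WT-Control keratinocyte-like cells were at 55.6 CPM (44.8 to 68.2), overlapping CCL21+ mTEC-like cells, and the other 10 classes ran from 5.15 CPM (T cell-like cells) to 33.1 CPM (neuroendocrine-like cells). Cd40-/- RANKL-Ab was the highest library in all 3 classes, CCL21+ mTEC-like, progenitor-like and cTEC-like. It was not so in tuft-like cells, where Cd40-/- RANKL-Ab lay -0.36 (-1.72 to 0.75) from WT-Control in log2 on 7 UMIs. In TA-TEC-like cells, too few in Cd40-/- RANKL-Ab, it was WT-RANKL-Ab that lay 1.15 (0.67 to 1.61) above WT-Control, and in early Aire-lineage-like cells 0.73 (0.28 to 1.16). After thinning, 5.75%, 3.56%, 5.41% and 12.9% of CCL21+ mTEC-like cells had a Notch2 UMI (unthinned, 23.8%, 19.95%, 21.7% and 43.8%), against 0.186% of T cell-like cells. Endothelial cells also express Notch2, and the 5 endothelium markers summed to 23.1 CPM in CCL21+ mTEC-like cells of Cd40-/- RANKL-Ab, none of them at 0, against 2.15, 2.39 and 2.15 in the other libraries with 1 to 3 markers at 0. Among cells of that class without an endothelium or mesenchyme marker UMI, Notch2 was at 53.3, 40.5, 55.4 and 108 CPM. The part of endothelial RNA in the Notch2 values was not tested.

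Notch3 went the other way. It was highest in CCL21+ mTEC-like cells in WT-Control at 15.0 CPM (13.03 to 17.2), with keratinocyte-like cells at 11.0 CPM (6.52 to 17.4) and an overlapping interval, and the other 12 classes ran from 0.576 CPM (ciliated-like cells) to 8.19 CPM (progenitor-like cells). Across the libraries CCL21+ mTEC-like cells had 15.0 and 21.5 CPM in the wild-type pair and 14.0 and 4.27 in the Cd40-/- pair. Cd40-/- RANKL-Ab was the low library at 17 UMIs, -1.81 (-2.62 to -1.10) from WT-Control in log2, and WT-RANKL-Ab was the high one at 0.52 (0.26 to 0.78). Progenitor-like cells had 8.19 and 4.32 CPM in the wild-type pair and 4.46 and 1.16 in the Cd40-/- pair, on 14, 19, 12 and 4 UMIs. Mgp and Gpx3 divide the CCL21+ mTEC-like class, and in WT-Control Notch3 was at 17.4 (15.0 to 20.1) CPM in cells with both and 6.15 (2.47 to 12.7) in cells with neither. In Cd40-/- RANKL-Ab the cells with both had 3.61 (1.80 to 6.46). The division rests on any UMI of each gene without thinning, and whether the cells are otherwise alike between the libraries was not tested. Vascular mural cells are known to express Notch3, and the 5 mesenchyme markers summed to 9.97, 5.06, 36.2 and 33.2 CPM in the class. Without cells carrying a UMI of them or of the endothelium list, Notch3 read 14.5, 21.6, 11.8 and 2.99 CPM.

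**Figure D2:**
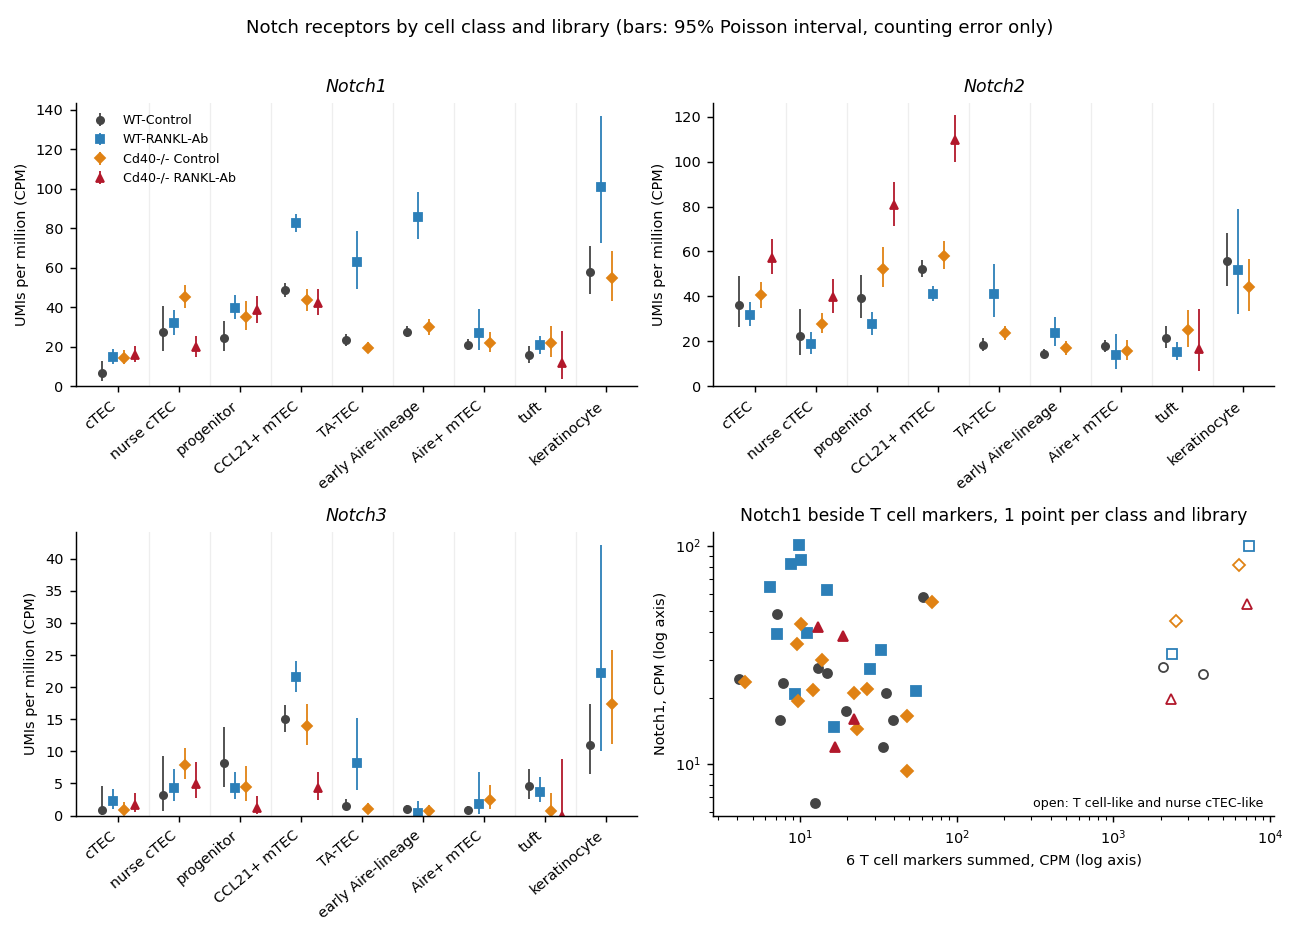
The first 3 panels plot each receptor in CPM for 9 cell classes and 4 libraries with 95% Poisson intervals, and the last plots Notch1 against the 6 summed T cell markers for each class and library on log axes, open symbols being T cell-like and nurse cTEC-like cells. Notch2 reaches 109.8 CPM in CCL21+ mTEC-like cells of Cd40-/- RANKL-Ab, where Notch3 is at 4.27. The filled points of the last panel lie to the left of the open ones, whose classes are gated by the markers on that axis.

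Hes1, a repressor that is a classical Notch target, was highest in CCL21+ mTEC-like cells in each library but WT-RANKL-Ab, where keratinocyte-like cells were at 153 CPM (117 to 196) on 62 UMIs. Its values in CCL21+ mTEC-like cells were 125 (119.5 to 131) and 137 (131 to 143) CPM in the wild-type pair and 90.6 (82.9 to 98.8) and 108 (97.8 to 118) in the Cd40-/- pair. Cd40-/- Control was the low library, -0.47 (-0.61 to -0.32) from WT-Control in log2, and WT-RANKL-Ab lay within 1.09-fold of WT-Control. In cTEC-like and progenitor-like cells Hes1 was between 40.1 and 62.1 CPM in all 4 libraries. In WT-Control the other 11 classes ran from 14.8 CPM (Aire+ mTEC-like cells) to 95.3 CPM (keratinocyte-like cells).

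Hey1, the other RBPJ-driven repressor, was highest in cTEC-like cells. It was at 128 and 149 CPM in the wild-type pair and 170.0 and 155 in the Cd40-/- pair, and in nurse cTEC-like cells at 72.5 and 85.8 CPM in the wild-type pair and 99.6 and 92.6 in the Cd40-/- pair. None of the conditions passed 2-fold against WT-Control in cTEC-like cells. In CCL21+ mTEC-like cells the libraries stood apart, at 45.3 (41.9 to 49.0) and 106 (101 to 111) CPM in the wild-type pair and 30.3 (25.9 to 35.2) and 44.0 (37.7 to 51.0) in the Cd40-/- pair. WT-RANKL-Ab was 2.34-fold WT-Control, or 1.22 (1.09 to 1.36) in log2, Cd40-/- Control stood below it at -0.58 (-0.84 to -0.34), and Cd40-/- RANKL-Ab was at -0.05 (-0.29 to 0.20). After thinning, 4.66%, 9.88%, 2.43% and 3.02% of these cells had a Hey1 UMI (unthinned, 21.3%, 42.1%, 14.4% and 23.5%), against 1.12% of T cell-like cells. In WT-Control the other 11 classes ran from 2.57 CPM (T cell-like cells) to 53.8 CPM (progenitor-like cells).

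Hes6, a family member that is known to oppose HES1, had its own pattern. It was highest in early Aire-lineage-like cells at 601 (588 to 614) and 1137 (1095 to 1180.0) CPM in the wild-type pair and 424 (409 to 439) in Cd40-/- Control, followed in WT-Control by TA-TEC-like cells at 406 and cTEC-like cells at 358, whose intervals of 393 to 419 and 325 to 394 just overlap. In the same library the other 11 classes ran from 53.7 CPM (keratinocyte-like cells) to 286 CPM (CCL21+ mTEC-like cells). Aire+ mTEC-like cells were at 79.8 CPM. The markers of early Aire-lineage-like cells were chosen with earlier results of these data known. The part of that choice in the rank of Hes6 was not tested. Hes6 in CCL21+ mTEC-like cells was at 286 and 386 CPM in the wild-type pair and 213 and 205 in the Cd40-/- pair, high in WT-RANKL-Ab and low in both Cd40-/- libraries, or 0.44 (0.38 to 0.49), -0.42 (-0.52 to -0.33) and -0.48 (-0.59 to -0.37) from WT-Control in log2. Hes6 is abundant enough that 10.8% of T cell-like cells held a UMI after thinning, against 36.5%, 47.8% and 28.6% of early Aire-lineage-like cells in the wild-type pair and Cd40-/- Control (unthinned, 84.8%, 74.8% and 72.2%).

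**Figure D3:**
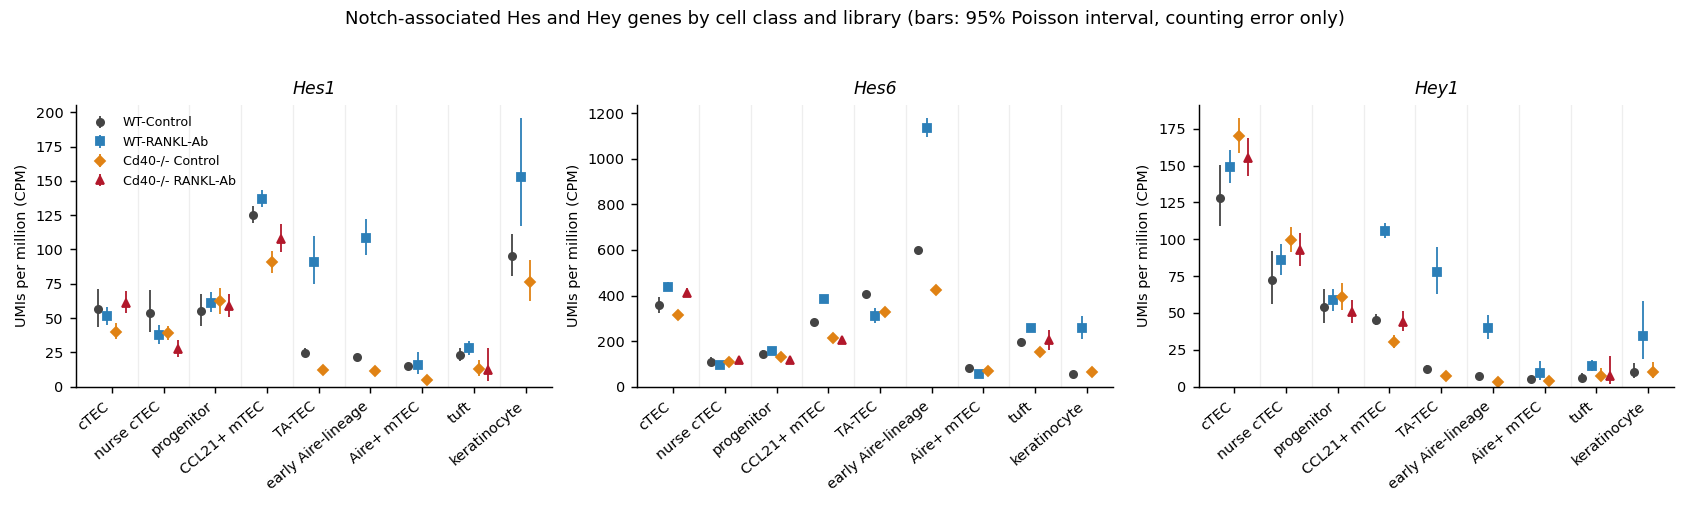
Each panel plots 1 Hes or Hey gene in CPM for 9 cell classes and 4 libraries with 95% Poisson intervals. WT-RANKL-Ab (squares) is the highest library for Hey1 in CCL21+ mTEC-like, TA-TEC-like and early Aire-lineage-like cells, at 106, 77.6 and 39.7 CPM against 45.3, 12.3 and 7.36 in WT-Control.

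The members were then counted past 2-fold against WT-Control, among genes with 20 or more UMIs over the pair of libraries, and read against the share of all genes past the same fold. WT-Control is shared by the 3 comparisons, so their counts are not independent. In cTEC-like cells 2 of 9 members passed in WT-RANKL-Ab (background 8.77%), 2 of 9 in Cd40-/- Control (background 14.2%) and 2 of 9 in Cd40-/- RANKL-Ab (background 10.3%), each time Dll1 and Notch1, which had 7 and 8 UMIs in WT-Control. Among CCL21+ mTEC-like cells 2 of 10 passed in WT-RANKL-Ab (Dll4 and Hey1, background 8.24%), 1 of 9 in Cd40-/- Control (Dll1, background 9.80%) and 4 of 10 in Cd40-/- RANKL-Ab (Dll4, Dll1 and Notch2 higher, Notch3 lower, background 14.0%). Dll4 there was between 0.179 and 2.26 CPM on 1 to 30 UMIs, so its ratio carries little. In progenitor-like cells 1 of 10 passed in WT-RANKL-Ab (Dll4, on 22 UMIs in all, background 7.28%), 0 of 9 in Cd40-/- Control (background 13.1%) and 1 of 8 in Cd40-/- RANKL-Ab (Notch2, background 8.43%). With so few members, 1 or 2 of them is close to what the background share gives. The members' median log2 ratio was 0.35, 0.55 and 0.48 in cTEC-like cells, beside 0.13, 0.22 and 0.16 for all genes tested, and 0.15, 0.42 and 0.25 in progenitor-like cells, beside 0.17, 0.23 and 0.13. It was 0.28, -0.10 and 0.13 in CCL21+ mTEC-like cells, beside 0.15, 0.13 and 0.12 for all genes tested. These medians over all genes were 0.10 to 0.23 in the 13 comparisons and -0.11 to 0.06 with edgeR TMM factors, a shift against which small ratios are to be read.

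**Figure D4:**
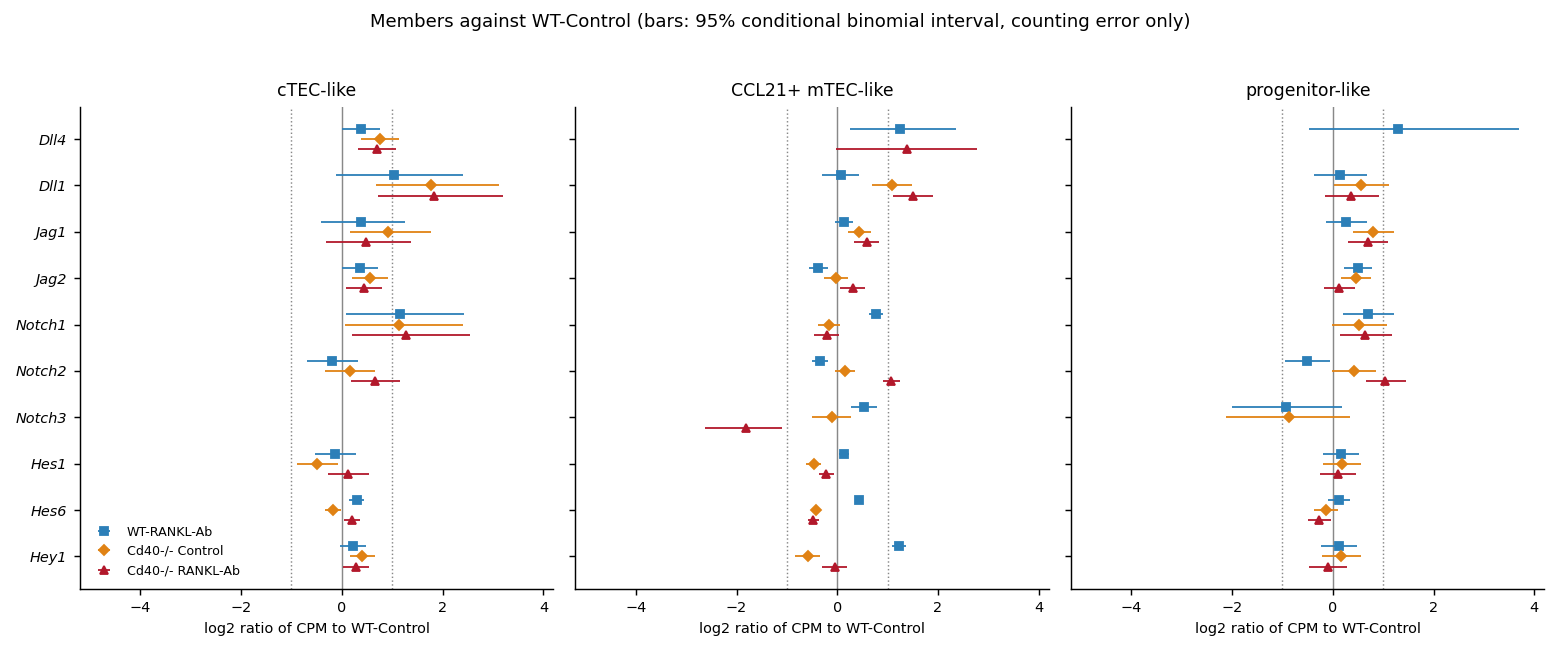
The horizontal axis is the log2 ratio of CPM to WT-Control for each member with 20 or more UMIs, in 3 cell classes, with 95% conditional binomial intervals and dotted lines at 2-fold. In CCL21+ mTEC-like cells Notch2 (1.07) and Notch3 (-1.81) of Cd40-/- RANKL-Ab lie on opposite sides, and Hey1 of WT-RANKL-Ab lies at 1.22.

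Larger ratios were found in early Aire-lineage-like and TA-TEC-like cells, classes whose counts were added after the data were seen. In early Aire-lineage-like cells of WT-RANKL-Ab 5 of 9 members passed 2-fold, all higher (Jag1, Jag2, Notch1, Hes1, Hey1), where 28.3% of all genes passed. The class itself differed in its markers. Aire was at 513 and 164 CPM in the wild-type pair and 578 in Cd40-/- Control. Of the gate markers, Tmem158 was at 715, 439 and 808 in that order, Utf1 at 684, 453 and 716, and Nkx6-2, the other way, at 304, 470 and 186. The cells are thus not matched between libraries, and the part of this in the member ratios was not tested. Hes1 was at 21.4 and 108 CPM in the wild-type pair and 11.2 in Cd40-/- Control, so that WT-RANKL-Ab lay 2.34 (2.09 to 2.59) above WT-Control in log2 and Cd40-/- Control at -0.93 (-1.30 to -0.57). Hey1 was at 7.36 and 39.7 CPM in the wild-type pair and 3.12 in Cd40-/- Control, or 2.43 (2.01 to 2.85) and -1.24 (-1.96 to -0.57) from WT-Control. WT-RANKL-Ab was the high library and Cd40-/- Control the low one for both genes. In WT-RANKL-Ab Notch1 lay 1.64 (1.39 to 1.89) and Hes6 0.92 (0.86 to 0.98) above WT-Control in log2. In Cd40-/- Control 1 of 9 members passed (Hey1, lower, background 12.6%). TA-TEC-like cells, the cycling class, were similar, and the order of these classes in the lineage was not tested. Of the members, 7 of 9 passed in WT-RANKL-Ab, all higher (Dll1, Jag1, Notch1, Notch2, Notch3, Hes1, Hey1), against 26.7% of all genes, and 0 of 10 in Cd40-/- Control against 8.67%. Hey1 there was at 12.3 and 77.6 CPM in the wild-type pair and 7.01 in Cd40-/- Control, and Hes1 at 24.7 and 90.8 CPM in the wild-type pair and 12.4 in Cd40-/- Control. Notch3, at 1.55 and 8.26 CPM in the wild-type pair and 1.02 in Cd40-/- Control, rested on 15, 10 and 9 UMIs, and Hes6, at 406 and 310.5 CPM in the wild-type pair and 326 in Cd40-/- Control, was lower in WT-RANKL-Ab. The members' median log2 ratio in WT-RANKL-Ab was 1.09 in early Aire-lineage-like and 1.88 in TA-TEC-like cells, beside 0.14 and 0.20 for all genes, and in Cd40-/- Control it was -0.01 and -0.30, beside 0.16 and 0.10. Markers of other cells differed between the same libraries. The 5 myeloid markers summed to 382 and 114 CPM in the wild-type pair and 555 in Cd40-/- Control in early Aire-lineage-like cells, with none at 0, and to 216, 19.8 and 196 in TA-TEC-like cells, where 4 of the 5 were at 0 in WT-RANKL-Ab and only Lyz2 was seen. Erythroid, parathyroid and B cell markers were also lower in WT-RANKL-Ab than in WT-Control in both classes, at no more than 28.7 CPM in either library, and at 3.79 to 37.8 in Cd40-/- Control. Their part in the member ratios was not tested.

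These classes differed between libraries in how many of their cells held Ccl21a, the chemokine of CCL21+ mTECs. Of early Aire-lineage-like cells, 17.4% and 79.8% in the wild-type pair and 12.6% in Cd40-/- Control held at least 20 Ccl21a UMIs per 10000, and of TA-TEC-like cells 25.2%, 80.5% and 20.3%, where T cell-like cells, which should lack Ccl21a, gave 15.9%, 8.85% and 3.72%. In WT-Control the share of early Aire-lineage-like cells was thus close to that background. In that library the background rests on 10 of 63 T cell-like cells. Their median depth was 2691 UMIs against 13095 in early Aire-lineage-like cells, so the shares are not matched in depth. There the Ccl21a-high early Aire-lineage-like cells had 72.0 (61.5 to 83.8) CPM of Hes1 and the Ccl21a-low ones 10.9 (9.08 to 13.1), so Hes1 went with Ccl21a within a library. Within the Ccl21a-high cells Hes1 was at 72.0 and 132 CPM in the wild-type pair and 37.7 in Cd40-/- Control, and within the Ccl21a-low cells at 10.9, 42.3 and 7.06. Hey1 was at 22.1, 40.4 and 5.95 CPM in the Ccl21a-high cells and 4.30, 37.6 and 2.67 in the Ccl21a-low ones. Notch1 differed little with Ccl21a in WT-Control (33.8 and 26.3 CPM) and more by library, with 90.2 and 73.7 in WT-RANKL-Ab. Among Ccl21a-high TA-TEC-like cells Hes1 was at 79.6 (67.8 to 92.9) in WT-Control and 99.97 (80.6 to 123) in WT-RANKL-Ab, overlapping intervals, whereas Hey1 was at 33.9 (26.4 to 42.9) and 90.2 (71.8 to 112). How far the share of Ccl21a-high cells enters the class ratios above was not tested beyond these values, and the Ccl21a-low set of WT-RANKL-Ab holds 65 early Aire-lineage-like and 25 TA-TEC-like cells.

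**Figure D5:**
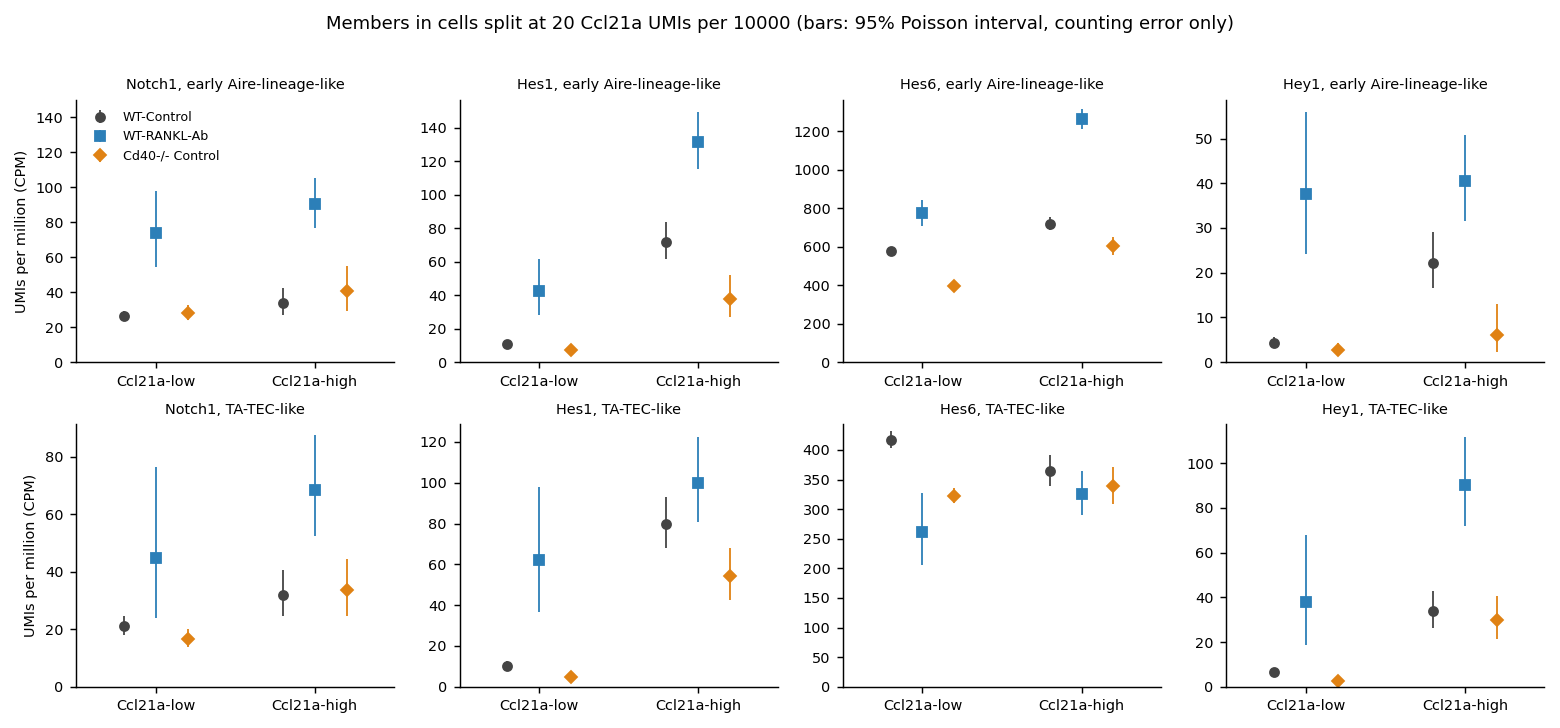
Each panel plots 1 gene in CPM in cells below and at or above 20 Ccl21a UMIs per 10000, in early Aire-lineage-like cells (top row) and TA-TEC-like cells (bottom row) of 3 libraries, with 95% Poisson intervals. Hes1 in early Aire-lineage-like cells of WT-Control stands at 10.9 CPM on the left and 72.0 on the right, and WT-RANKL-Ab (squares) lies above WT-Control on both sides.

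The rest of the pathway was taken from 52 genes listed by role. In Cd40-/- RANKL-Ab against WT-Control, counts of these genes past 2-fold were close to the shares of all genes. By class, 2 of 43 measured genes were higher and 5 lower in CCL21+ mTEC-like cells (background 14.0%), 4 of 40 higher and 0 lower in cTEC-like cells (background 10.3%), and 2 of 36 higher and 1 lower in progenitor-like cells (background 8.43%). Within CCL21+ mTEC-like cells the other targets were the role with most of the lower genes, 3 of 4 measured. Heyl, a HEY-family target, was at 25.7 and 34.6 CPM in the wild-type pair and 18.4 and 8.79 in the Cd40-/- pair, the last -1.55 (-2.09 to -1.04) from WT-Control in log2. Nrarp, a feedback inhibitor that Notch induces, was at 20.8, 37.4, 5.91 and 7.79 CPM in the same order, low in both Cd40-/- libraries, with Cd40-/- RANKL-Ab at -1.42 (-2.002 to -0.88). Hey2, another repressor of the family, was at 18.0, 13.1, 13.1 and 8.54 CPM, the last -1.08 (-1.64 to -0.56) from WT-Control. Heyl and Nrarp, like Notch3 and Hey1, had their highest level in WT-RANKL-Ab.

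Among the other ligands, Dll3, which acts inside the cell on its own receptors, was at 16.9 and 29.9 CPM in the wild-type pair and 8.24 and 8.04 in the Cd40-/- pair, in CCL21+ mTEC-like cells. Dlk2, a delta-like protein without the canonical receptor-activating domain, was at 1.72, 3.62, 5.37 and 18.1, 10.5-fold higher in Cd40-/- RANKL-Ab than in WT-Control on 72 and 24 UMIs. Mfng, a fringe glycosyltransferase that tunes which ligand a receptor answers, was at 3.30, 9.63, 1.61 and 1.51 CPM, the last on 6 UMIs with a log2 interval of -2.65 to 0.10. Of the nuclear complex, Ep300, a histone acetyltransferase, lay 1.12 (0.47 to 1.84) above WT-Control in log2 in cTEC-like cells of Cd40-/- RANKL-Ab, and Maml2, a Mastermind co-activator, 1.17 (0.60 to 1.78) above it in progenitor-like cells. In Cd40-/- Control 7 of the 13 nuclear-complex genes passed 2-fold upward in progenitor-like cells, with a median log2 ratio of 1.03, against 13.1% of all genes in either direction in a comparison whose median over all genes was 0.23. No other role, class or comparison held as many. In the same class 2 of 13 passed in Cd40-/- RANKL-Ab (median 0.58) and 0 of 13 in WT-RANKL-Ab (median 0.37). With TMM factors the median over all genes in Cd40-/- Control was 0.01, and the count of 7 was not redone with them.

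The genes whose profile was most like each member were found over 47 units of 1 class in 1 library, by Pearson's r of log2(CPM + 1) among 13784 genes, as a description in which units of a library share its depth and its marker-gated classes. For Dll4 they were Ccl25 (0.92), Tbata (0.92), Snap91 (0.90), the first 2 being cTEC markers used to gate. For Dll1 they were Bmpr1a (0.89), Laptm4a (0.88), Rras (0.88), and for Jag1 Cdc42ep5 (0.80), Pdzd2 (0.80), Phlda3 (0.79), whereas Jag2 stood with Cbx6 (0.90), Aldh6a1 (0.89), Gm1673 (0.88). Notch1 gave Tpt1 (0.82), Ddit4 (0.75), Blmh (0.75), Notch2 Foxc1 (0.81), Olfml2a (0.81), Palmd (0.80) and Notch3 Slc7a11 (0.69), Inpp4b (0.69), Serinc5 (0.68). Hes1 was nearest to Krt5 (0.78), Efna4 (0.77), Plscr3 (0.76), of which Krt5 is a gate marker, Hes6 to Hsp90ab1 (0.83), Mrfap1 (0.83), Prdx2 (0.80) and Hey1 to Ctsl (0.88), Pard6g (0.88), Carmn (0.87). Among the members, Hey1 ran with Jag2 (0.72), Dll1 (0.68) and Hes1 (0.62), and Hes1 with Notch1 (0.62) and Notch3 (0.58), while Dll4 had r between -0.32 and 0.38 with the other members.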

How the data were processed

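Single-cell libraries were made by droplet capture of 3′ ends (the labels name the v2 kit and the methods of the study another), 1 per condition. The deposited values are UMI counts per gene and barcode, restricted to called cells and not normalised. The authors made them with Cell Ranger on mm10 (5.1 in the submitters' processing notes, and another version in the methods of the study). Here genes seen in more than 5 cells were kept, and barcodes needed 200 genes and no more than 25% mitochondrial UMIs. A cell was given the class with the highest mean scaled marker level if this was 0.5 or more, led the next class by 0.3 and rested on 2 detected markers. No doublet caller was run. The following choices were made after the data were seen. Copied barcodes and cycling cells that passed the T cell list were left out, and cells were split by Ccl21a. Members past 2-fold were also counted in early Aire-lineage-like and TA-TEC-like cells. UMIs were summed over the cells of a class and divided by their total, with exact Poisson intervals for levels and conditional binomial intervals for ratios at the 95% level. Shares of cells were taken after thinning, without the 570, 492, 653 and 74 cells below 1000 UMIs (wild-type pair, then Cd40-/- pair). The scripts were tested on simulated counts. Python 3.11.15, scipy 1.17.1, R 4.3.3 and edgeR 4.0.16 (TMM factors only) were used. The 10 members and the marker and pathway lists were chosen with earlier results of these data known. All members are named, as are the pathway genes past 2-fold in Cd40-/- RANKL-Ab with 50 or more UMIs.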

Additional observations from a re-analysis of the deposited data

Results flagged for a closer look

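The antibody libraries differed from their controls in opposite directions in the 2 genotypes for 3 members, with intervals on either side of 0. All 10 members were screened in 3 classes, and the share of all genes meeting this rule was not counted. In CCL21+ mTEC-like cells the median log2 ratio over all genes was 0.15 in wild-type and -0.0065 in Cd40-/- mice. In progenitor-like cells it was 0.17 and -0.11, a gap against which the smaller values are to be read. There is 1 library per condition, so the difference between genotypes was not tested. Notch2 in CCL21+ mTEC-like cells was at -0.34 (-0.50 to -0.18) in log2 under the antibody in wild-type mice and at 0.92 (0.70 to 1.13) in Cd40-/- mice. Progenitor-like cells gave -0.51 (-0.95 to -0.06) and 0.62 (0.32 to 0.92) for the same gene. Notch3 in CCL21+ mTEC-like cells was at 0.52 (0.26 to 0.78) and -1.71 (-2.56 to -0.94). Jag2 was at -0.37 (-0.56 to -0.19) and 0.33 (0.04 to 0.63) in CCL21+ mTEC-like cells. In progenitor-like cells Jag2 went the other way round, at 0.50 (0.22 to 0.78) and -0.32 (-0.56 to -0.09). Split by Ccl21a as above, Ccl21a-high progenitor-like cells had higher Notch2 and Jag2 under the antibody in both genotypes. Only the Ccl21a-low ones went opposite ways. Ccl21a in the whole progenitor-like class was at 14428 and 8918 CPM in the wild-type pair and 9932 and 18496 in the Cd40-/- pair. The part of this mix in the flagged values was not tested.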

How the results depend on the processing

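No paired analysis was possible because each condition has 1 library, so no library could be left out either. Of 28 member ratios past 2-fold, 28 kept their direction and 15 stayed past 2-fold under every alternative tried. Among the 15 were Hey1 in CCL21+ mTEC-like cells of WT-RANKL-Ab (1.08 to 1.34) and Notch3 there in Cd40-/- RANKL-Ab (-2.63 to -1.07). They also held both Dll4 ratios of that class, which rest on few UMIs. The alternatives reuse the same libraries, so they give no measure of spread between animals, and the minimum of 100 UMIs was not applied to the ratios. Notch2 in Cd40-/- RANKL-Ab ranged from 0.93 to 1.13 in CCL21+ mTEC-like and 0.58 to 1.09 in progenitor-like cells, so its place past 2-fold depends on the setting. Dll1 in CCL21+ mTEC-like cells of Cd40-/- Control reached 0.90 with TMM factors. Sign changes with scaling were confined to 17 ratios that were under 2-fold as reported. Of 132 recounts of members past 2-fold, 33 moved by over 1.5 times, and the cause was not tested. In cTEC-like cells, where 2 passed in each comparison, WT-RANKL-Ab gave 1 with the mitochondrial limit of 13%, with cells of 2000 or more UMIs, without cells holding a T cell marker UMI and with TMM factors, and 0 with the gate on detected markers and with a minimum of 100 UMIs. There Cd40-/- Control gave 1 without cells holding a T cell marker UMI, with TMM factors and with the minimum of 100, and Cd40-/- RANKL-Ab gave 1, 1 and 0 with the gate on detected markers, without those cells and with the minimum of 100. In CCL21+ mTEC-like cells WT-RANKL-Ab gave 1 with the minimum of 100 and Cd40-/- Control 0 with TMM factors. In progenitor-like cells WT-RANKL-Ab gave 2 with TMM factors and 0 with the gate on detected markers, a wider gate margin and the minimum of 100, Cd40-/- Control gave 1 with TMM factors and 2 with the mean over cells, and Cd40-/- RANKL-Ab gave 2 with the gate on detected markers and with the mean over cells and 0 with the wider margin, without cells holding a T cell marker UMI and with TMM factors. In the classes counted after the data were seen, early Aire-lineage-like cells of WT-RANKL-Ab gave 3 with TMM factors. Those of Cd40-/- Control gave 2 with TMM factors and with the gate on detected markers. TA-TEC-like cells of WT-RANKL-Ab gave 4 with the minimum of 100. Those of Cd40-/- Control gave 2 with the gate on detected markers and 1 with the wider margin and with TMM factors. They also gave 1 with the cycling cells kept that pass the T cell list, a setting added after the data were seen. Depth limits Dll1 and Notch1 in cTEC-like cells of WT-Control, with 7 and 8 UMIs.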
